A study of Mus musculus with 18 samples.

Results

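Pou5f1, Nanog, Utf1, Dppa5a and Tcea3 are 5 of the 10965 genes in the deposited expression table. They were taken by symbol because the study names them as members of the wider pluripotency network whose mRNA stayed high in mouse embryonic stem cells (ESCs) without Zeb2 during neural differentiation. That choice was made on the same 18 libraries, so a higher level in Zeb2 KO at d4 and d6 is not independent evidence of direction, and the values below describe how far, when and how differently the 5 genes moved. Control ESCs (Ctrl, Zeb2 fl/fl) carry Zeb2 alleles flanked by loxP sites, and KO ESCs (Zeb2 -/-) lack functional alleles, both from the CD1 strain by the labels. Each genotype was collected in 2i + LIF, the feeder-free ground-state medium with inhibitors of Mek and Gsk3 (d0), after growth as embryoid bodies (EBs) in medium with 15% serum (d4), and after a change on d4 to N2B27 medium with 500 nM retinoic acid (d6). There are 3 libraries for each genotype and day, called biological replicates by the submitters. The study describes them as separate experiments. How many ESC lines stand behind them is not given in the sources used here, so p-values measure the spread between these experiments and not between lines. The methods describe KO lines made by transient Cre expression in control lines and others from a second derivation, and the lines sequenced are not named. The labels and the methods give different doses for the inhibitors at d0. RNA was taken from whole EBs, which hold several kinds of cell, so fewer cells that express a gene and less of its mRNA in each cell cannot be told apart.

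Pluripotent cells are kept in that state by a small network of transcription factors that activate one another and themselves. Pou5f1 (Oct4), a POU-domain factor that binds DNA together with Sox2, and Nanog, a homeodomain factor, are at its centre. Utf1 is a chromatin-associated protein of pluripotent cells and a classical target of Pou5f1 and Sox2, Dppa5a is a small RNA-binding protein with a KH domain, and Tcea3 is a form of the elongation factor TFIIS, which restarts stalled RNA polymerase II. The network is dismantled in steps when 2i and LIF are withdrawn. Genes of the naive state go first, while Pou5f1 is still expressed in the epiblast after implantation and Utf1 is known as an epiblast gene as well. Zeb2 is a zinc-finger repressor that binds CACCT half-sites through a pair of zinc-finger clusters, often within the E-box CACCTG.

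Stretches of DNA upstream of 3 of the genes are shown because Zeb2 binds short motifs of known letters and because the promoter of Nanog holds a composite site for Pou5f1 and Sox2. They come from the RefSeq promoter windows of GRCm38.p6, each 300 bases long (250 before the start and 50 after it), which matched 4 of the 5 genes, Pou5f1, Nanog, Utf1 and Tcea3. Each stretch ends at the last base before the first exon in GENCODE M21 and reads 5′ to 3′ on the plus strand, the strand of these genes. Capitals mark CACCT or its other strand AGGTG, with the full E-box CACCTG or CAGGTG where present, and the composite of a POU and a Sox site, read as TTTGCAT, any base and ACAATG.
Pou5f1, chr17:35505782-35506017: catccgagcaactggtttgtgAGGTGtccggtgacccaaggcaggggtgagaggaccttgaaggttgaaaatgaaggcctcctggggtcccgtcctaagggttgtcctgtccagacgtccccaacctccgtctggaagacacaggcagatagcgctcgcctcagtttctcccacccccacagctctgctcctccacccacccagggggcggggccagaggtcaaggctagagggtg
Nanog, chr6:122707239-122707488: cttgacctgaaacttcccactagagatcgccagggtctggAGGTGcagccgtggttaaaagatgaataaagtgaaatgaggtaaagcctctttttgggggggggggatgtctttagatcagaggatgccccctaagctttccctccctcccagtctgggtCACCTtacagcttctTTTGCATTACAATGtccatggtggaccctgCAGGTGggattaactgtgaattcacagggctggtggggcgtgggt
Utf1, chr7:139943606-139943788: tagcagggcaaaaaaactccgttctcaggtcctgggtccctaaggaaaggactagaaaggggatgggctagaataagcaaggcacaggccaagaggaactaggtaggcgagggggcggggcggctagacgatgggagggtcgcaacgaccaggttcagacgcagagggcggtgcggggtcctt
Over the 300 bases, the window of Nanog used here held 3 matches to CACCT on either strand, 1 of them within an E-box, that of Pou5f1 held 3 with 2 of them past the start, that of Utf1 held 1 and that of Tcea3 held 0. Pou5f1 and Nanog each have another window, not shown, which held 0 matches for Pou5f1 and 2 for Nanog. Among 32851 promoter windows of the mouse genome, 51.9% held at least 1 such match and 20.2% held the E-box. The composite, on either strand, was found in 2 of the 32851 windows, both of them windows of Nanog that overlap each other. Its pattern has the letters of the Nanog site with 1 base left free. No mismatch was allowed, so composite sites with other letters were not counted. The stretch of Tcea3 is not shown because the exon of GENCODE M21 begins 22 bases into its window. A match describes these letters in this window and is not a measured binding site. The study looked at a wider region around the start and reports putative Zeb2 sites for all of these genes. It also reports enrichment of tagged Zeb2 on the Nanog promoter by chromatin immunoprecipitation, in KO ESCs given a copy of Zeb2.

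Expression is given as deposited, as TPM, a unit scaled to the library and to the length of the transcript, which allows genes to be compared. Differences are KO minus Ctrl on the log2(TPM + 1) scale, from limma with 1 mean for each of the 6 groups, with p-values adjusted by Benjamini-Hochberg over the 10965 genes and calls made at an adjusted p below 0.01. The libraries hold between 9622622 and 15617675 reads on these genes, and each value of the 5 genes rests on at least 99 reads. Zeb2 itself rose in Ctrl to 7.66 ± 0.138 TPM (SD, n = 3) at d6 and was at 0.681 ± 0.0763 TPM in KO. The 5 markers of ground-state ESCs added up to 3049 to 3349 TPM over the 6 libraries of d0, and 5 markers of neural progenitors, at 32.3 to 42.9 TPM in those libraries, reached 232 to 251 TPM in Ctrl and 60.5 to 73.7 TPM in KO at d6. The median log2 difference of all genes was -0.07, -0.16 and -0.14 at d0, d4 and d6. After rescaling by median ratios it was -0.03, 0.00 and 0.01, and the differences given here are not shifted for it.

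**Figure D1:**
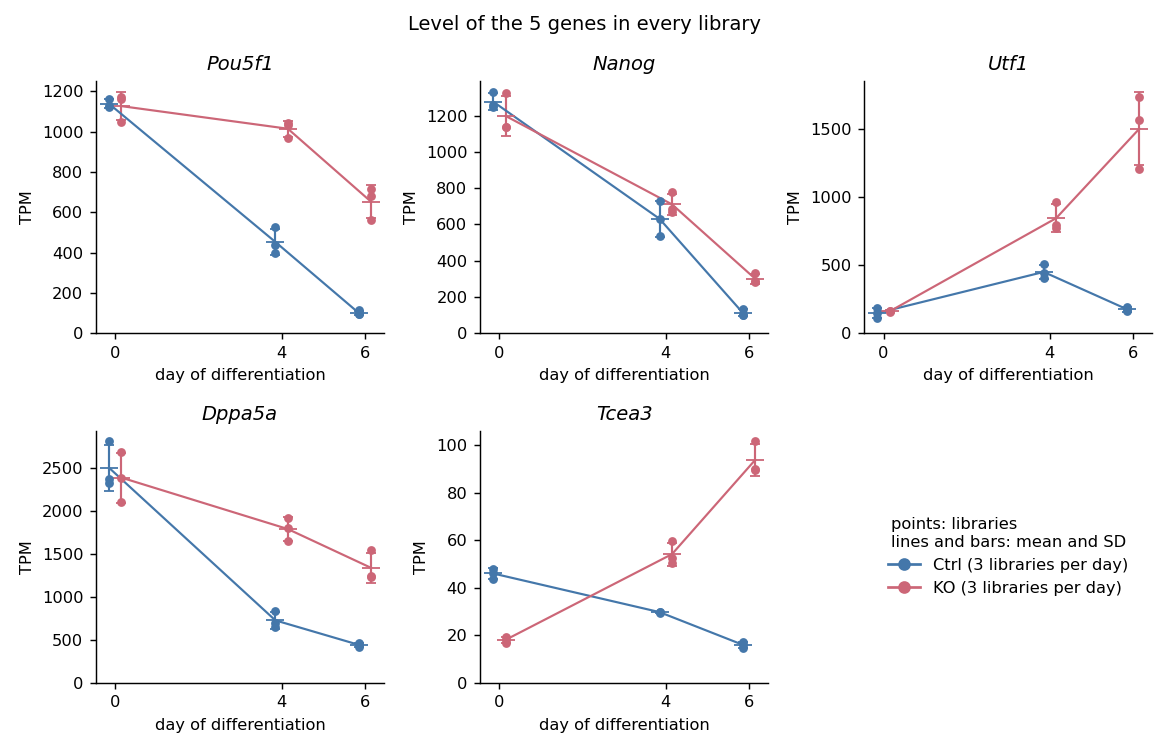
Level of each gene in TPM (vertical axis, starting at 0, on a different scale for each gene) against the day of differentiation, for Ctrl in blue and KO in red. Points are libraries, and lines and bars are means and SDs of 3 libraries. Pou5f1, Nanog and Dppa5a decline from d0 in both genotypes, more slowly in KO, while Utf1 and Tcea3 climb in KO.

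The mRNA of the 5 genes did not share a single course. Without Zeb2, Pou5f1 and Dppa5a were at 57.9% and 56.0% of their d0 level at d6, Nanog fell to 25.01% of it, and Utf1 and Tcea3 climbed far above it. In Ctrl, Pou5f1, Nanog, Dppa5a and Tcea3 fell by d6 and Utf1 passed through a peak at d4. At d0, 4 of the 5 genes had overlapping levels in the genotypes, and Tcea3 began lower in KO.

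Pou5f1 (ENSMUSG00000024406; chromosome 17, 35506018 to 35510772 of GRCm38, plus strand) stood at 1165, 1127 and 1125 TPM in the Ctrl libraries of d0 and at 1163, 1047 and 1171 TPM in the KO libraries. In Ctrl the values at d4 were 525, 436 and 397 TPM, and at d6 they were 114, 93.0 and 95.6 TPM. In KO they were 969, 1043 and 1033 TPM at d4 and 718, 561 and 678 TPM at d6. The genotypes overlapped at d0, and on the later days each KO library lay above each Ctrl library. Between d0 and d6 Pou5f1 thus went from 1139 ± 22.4 to 101 ± 11.3 TPM (SD, n = 3) in Ctrl, 8.85% of the start, and from 1127 ± 69.3 to 652 ± 81.7 TPM in KO, 57.9% of the start. The genotypes differed by -0.02 at d0 (SE 0.10, adjusted p = 0.922), by 1.17 at d4 (SE 0.10, adjusted p = 1.57e-07) and by 2.68 at d6 (SE 0.10, adjusted p = 3.81e-12). Among all genes it was the 34th largest at d6. In KO the step from d0 to d4 was -0.15 (95% interval -0.37 to 0.07, adjusted p = 0.215), against -1.34 in Ctrl (adjusted p = 7.71e-09), and the fall came between d4 and d6, with -0.64 (adjusted p = 7.63e-05). KO at d6, the later day, still lay above Ctrl at d4.

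Nanog (ENSMUSG00000012396; chromosome 6, 122707489 to 122714633, plus strand) reached 1247, 1330 and 1257 TPM in Ctrl, and 1136, 1136 and 1325 TPM in KO, at d0. At d4 the Ctrl libraries held 730, 629 and 534 TPM and the KO libraries 776, 668 and 688 TPM. At d6 the values were 102, 134 and 101 TPM in Ctrl and 332, 281 and 286 TPM in KO. The groups overlapped at d0 and at d4, and only at d6 did KO separate from Ctrl. The difference was 0.18 at d4 (95% interval -0.07 to 0.43, adjusted p = 0.204) and 1.42 at d6 (SE 0.12, adjusted p = 3.69e-08), a ratio of 2.67 in mean TPM. Nanog fell in KO at each step, by 0.75 from d0 to d4 (adjusted p = 3.17e-05) and by 1.24 from d4 to d6 (adjusted p = 3.41e-07), and ended at 25.01% of its d0 mean. In Ctrl it ended at 8.78%. Nanog was thus retained relative to Ctrl at d6 and not relative to its own start.

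Utf1 (ENSMUSG00000047751; chromosome 7, 139943789 to 139945112, plus strand) was low at d0, with 183, 112 and 145 TPM in Ctrl and 165, 163 and 153 TPM in KO. At d4 the Ctrl libraries held 439, 505 and 403 TPM, and 797, 771 and 964 TPM were found in KO. At d6 the Ctrl libraries were back at 193, 172 and 160 TPM, and the KO libraries held 1208, 1564 and 1731 TPM. Utf1 therefore rose in both genotypes on leaving 2i + LIF, by 1.63 in Ctrl (adjusted p = 9.56e-08) and by 2.38 in KO (adjusted p = 1.25e-09). All KO libraries already lay above all Ctrl libraries at d4, and the directions turned opposite afterwards. From d4 to d6 it fell by 1.35 in Ctrl (adjusted p = 2.24e-06) and rose by 0.82 in KO (adjusted p = 3.55e-04). Its KO mean at d6, 1501 ± 267 TPM (SD, n = 3), was 9.38 times that of d0 and ranked 30th of all genes of the table, against 1214th at d0. KO minus Ctrl came to 0.15 at d0 (SE 0.16, adjusted p = 0.476), to 0.91 at d4 (SE 0.16, adjusted p = 1.42e-04) and to 3.08 at d6 (SE 0.16, adjusted p = 9.73e-11), the largest of the 5 genes at d6 and an 8.57-fold ratio of mean TPM.

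Dppa5a (ENSMUSG00000060461; chromosome 9, 78367052 to 78368177, minus strand) was the most abundant of the 5 at d0, with 2319, 2810 and 2369 TPM in Ctrl and 2378, 2097 and 2678 TPM in KO. At d4 Ctrl had 833, 700 and 645 TPM, while KO had 1916, 1799 and 1646 TPM. The d6 values were 440, 468 and 418 TPM in Ctrl and 1539, 1228 and 1241 TPM in KO. No KO library overlapped with Ctrl on the later days. The gap opened by d4, with 1.30 (SE 0.12, adjusted p = 1.64e-07), and was 1.59 at d6 (SE 0.12, adjusted p = 7.58e-09). In KO the declines were modest, with -0.41 from d0 to d4 (adjusted p = 0.00506) and -0.42 from d4 to d6 (adjusted p = 0.00565), and each lost its call when single KO libraries were left out. Leaving out replicate 3 of KO d0 gave -0.32 (adjusted p = 0.0324) for the first step, and leaving out replicate 2 of KO d6 gave -0.37 (adjusted p = 0.0299) for the second. The whole fall from d0 to d6, -0.84 (adjusted p = 5.87e-06), was called without any 1 of the libraries.

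Tcea3 (ENSMUSG00000001604; chromosome 4, 136247729 to 136274898, plus strand) was the least abundant and the only one of the 5 that differed at d0. Ctrl libraries held 48.1, 43.8 and 46.3 TPM and KO libraries 17.0, 17.8 and 19.5 TPM. At d4 the order was turned, with 29.9, 29.9 and 29.6 TPM in Ctrl and 52.4, 50.5 and 59.7 TPM in KO. At d6 Ctrl had 14.8, 16.03 and 17.2 TPM and KO had 102, 90.1 and 89.8 TPM. The genotypes did not overlap on any day. KO minus Ctrl went from -1.30 at d0 (SE 0.08, adjusted p = 1.16e-08) through 0.84 at d4 (SE 0.08, adjusted p = 3.91e-07) to 2.48 at d6 (SE 0.08, adjusted p = 4.55e-13). Tcea3 fell in Ctrl at each step, to 34.8% of its start, and rose in KO at each step, to 519% of its start. The level of KO at d0, 18.1 ± 1.28 TPM (SD, n = 3), was near that of Ctrl at d6, 16.02 ± 1.23 TPM, and these 2 groups overlapped.

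**Figure D2:**
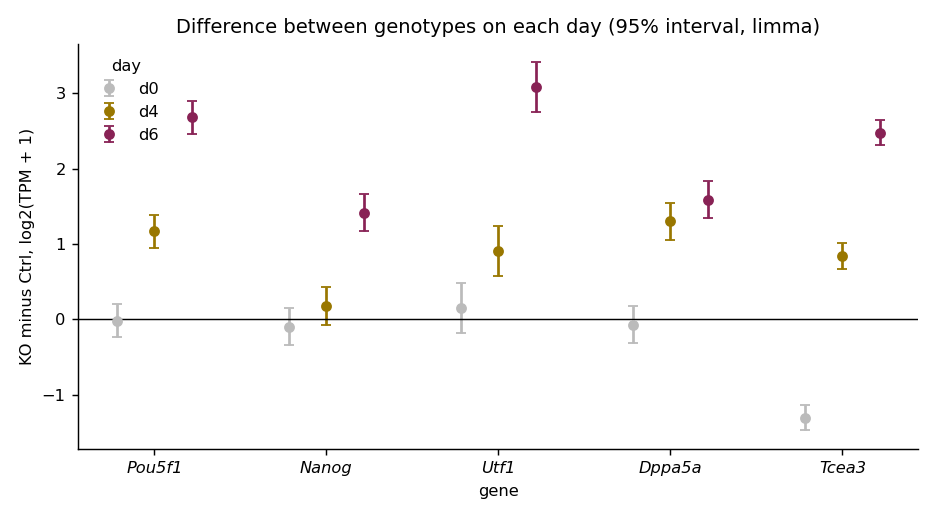
KO minus Ctrl on the log2(TPM + 1) scale (vertical axis) for each gene (horizontal axis) at d0, d4 and d6, with points for the limma estimate over 3 libraries of each genotype and bars for its 95% interval. The interval spans 0 for 4 genes at d0 and for Nanog at d4, and at d6 the estimates run from 1.42 for Nanog to 3.08 for Utf1.

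Over the 5 genes, 1 was called lower in KO at d0 (Tcea3), where 16.4% of all genes were called lower and 10.6% higher. At d4, 4 were called higher and Nanog was not, where 12.7% of all genes were called higher and 32.7% lower. At d6 all 5 were called higher, against 17.9% of all genes called higher and 34.3% lower. The study chose the genes on these libraries, so the counts at d4 and d6 follow in part from the choice. The median difference of the 5 was -0.07, 0.91 and 2.48 on the 3 days. The 3 KO libraries lay wholly above the 3 Ctrl libraries for 4 of the 5 genes at d4, a separation that 20.0% of all genes showed, and for 5 of 5 at d6, against 22.7%. At d0 Tcea3 alone was separated, with KO below Ctrl, as were 31.5% of all genes (19.9% had KO above Ctrl). None of the 5 had KO wholly below Ctrl at d4 or d6, where 45.7% and 41.1% of all genes did.

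Within Ctrl, 4 of the 5 genes were called lower at d4 than at d0 and Utf1 was called higher, where 22.3% of all genes were called lower and 45.1% higher. From d4 to d6 all 5 were called lower (21.5% of all genes, with 22.6% higher), and over the whole course 4 were lower and none higher (25.8% and 45.8% of all genes). For Utf1 the Ctrl difference between d6 and d0 was 0.28 (95% interval -0.05 to 0.61, adjusted p = 0.114). Within KO, Utf1 and Tcea3 were called higher at d4 than at d0 and Nanog and Dppa5a lower, where 35.8% of all genes were called higher and 20.9% lower. From d4 to d6 the same 2 genes were called higher (21.5% of all genes) and the other 3 lower (19.9%). Over the whole course 2 rose (40.3% of all genes were called higher) and 3 fell (27.4% lower).

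**Figure D3:**
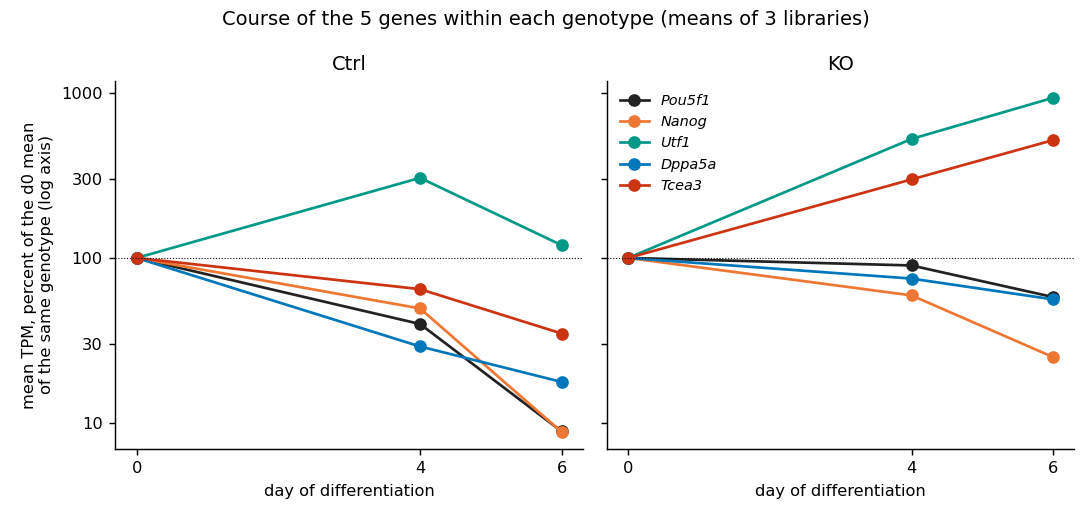
Mean TPM of 3 libraries as a percentage of the d0 mean of the same genotype (vertical log axis) against the day, with Ctrl on the left and KO on the right and 1 line for each gene. At d6 the Ctrl means lie between 8.78% (Nanog) and 119% (Utf1) of the start, and the KO means between 25.01% (Nanog) and 938% (Utf1).

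Whether the change over time differed between genotypes was tested as an interaction, which takes the d0 level of each genotype into account. From d0 to d4 the change in KO exceeded that in Ctrl for Pou5f1 by 1.19, for Dppa5a by 1.37 and for Tcea3 by 2.14, so that 3 of the 5 were called (13.6% of all genes were called in this direction and 22.5% in the other). Utf1 gave 0.75 (95% interval 0.29 to 1.22, adjusted p = 0.010004), which lies just past the threshold and was not called, and Nanog gave 0.28 (95% interval -0.08 to 0.63, adjusted p = 0.184). From d4 to d6 the excess was 1.51 for Pou5f1, 1.24 for Nanog, 2.17 for Utf1 and 1.64 for Tcea3, 4 calls of 5 (7.10% of all genes, with 6.29% the other way), and 0.28 for Dppa5a (95% interval -0.07 to 0.63, adjusted p = 0.244). Over d0 to d6 all 5 were called (17.8% of all genes, with 25.9% the other way), from 1.51 for Nanog to 3.78 for Tcea3, the 11th largest among all genes. By these calls the genotypes parted by d4 for Dppa5a, after d4 for Nanog and Utf1, and in both intervals for Pou5f1 and Tcea3. The intervals were not tested against each other, and neither were the genes. Utf1 lay at the threshold in the first interval, and the KO minus Ctrl difference of Nanog at d4 was called once regional medians were removed.

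The order of the 6 groups by level was as follows. For Pou5f1 both d0 groups stood highest and overlapped, followed by KO d4, KO d6, Ctrl d4 and Ctrl d6, none of which overlapped with its neighbour. For Nanog the 2 groups of d0 overlapped, the 2 of d4 overlapped below them, and KO d6 and Ctrl d6 came last and apart. For Utf1 the order was KO d6, KO d4 and Ctrl d4, all apart, and then Ctrl d6, KO d0 and Ctrl d0, which overlapped with one another. For Dppa5a the d0 groups overlapped at the top, and KO d4, KO d6, Ctrl d4 and Ctrl d6 followed without overlap. For Tcea3 it was KO d6, KO d4, Ctrl d0 and Ctrl d4, apart from each other, and then KO d0 and Ctrl d6, which overlapped.

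Nanog and Pou5f1 code for partners in the same network and stood near a 1 to 1 ratio of TPM at d0, with 1.07, 1.18 and 1.12 in Ctrl and 0.977, 1.08 and 1.13 in KO. At d4 the ratio was 1.39, 1.44 and 1.35 in Ctrl and 0.801, 0.640 and 0.666 in KO. At d6 it was 0.900, 1.43 and 1.05 in Ctrl and 0.463, 0.500 and 0.422 in KO. On both later days the ratio was lower in each KO library than in any Ctrl library. The geometric means at d6 were 1.11 and 0.461, and the exact two-sided permutation test over the 6 libraries gave p = 0.1 at d4 and at d6, the smallest value that 3 against 3 libraries allow, and p = 0.5 at d0. This ratio was chosen after its values were seen, as 1 of 12 ratios to Pou5f1 (4 genes on 3 days), and the adjusted p over the 12 was 0.3 at d4 and d6. The ratio of Dppa5a to Pou5f1 was also lower in KO at d6, 2.05 against 4.40 (p = 0.1 by the same exact test, adjusted 0.3), with Pou5f1 at 8.85% and Dppa5a at 17.7% of the start in Ctrl. For Tcea3 it was lower in KO at d0, with 0.0161 against 0.0404 (p = 0.1 by the same exact test, adjusted 0.3), and the genotypes differed little at d6, with 0.144 against 0.159 (exact p = 0.5).

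**Figure D4:**
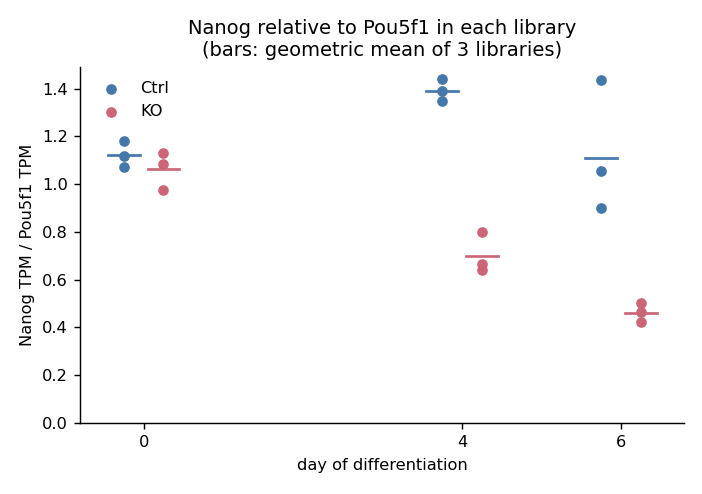
Nanog TPM divided by Pou5f1 TPM in each library (vertical axis, starting at 0) against the day, for Ctrl in blue and KO in red, with points for libraries and bars for geometric means of 3 libraries. The genotypes share a range at d0, and at d6 the KO libraries sit between 0.422 and 0.500 and the Ctrl libraries between 0.900 and 1.43.

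The rest of the pluripotency network was described with 2 lists, fixed with earlier results of these data known. Of 20 other genes of the general network, the calls in KO numbered 3 higher and 6 lower at d0, 10 and 2 at d4 (the 2 became 0 after median-ratio rescaling), and 14 and 1 at d6, with a median difference of 1.42 at d6 against -0.14 over all genes. Over all genes, 10.6% were called higher and 16.4% lower at d0, 12.7% and 32.7% at d4, and 17.9% and 34.3% at d6. Of 12 naive-state genes, 5 were called higher and 1 lower at d6, with a median of -0.12. All 12 naive genes were called lower at d6 than at d0 in each genotype, with a median of -3.68 in Ctrl and -3.73 in KO. Among all genes 25.8% were called lower in Ctrl and 27.4% in KO. Of the 20 general genes, 9 were called higher and 9 lower at d6 than at d0 in KO. Among all genes 40.3% were called higher there, near the share in the list, and 27.4% lower. In Ctrl, 3 of the 20 were called higher and 17 lower, where 45.8% of all genes were called higher and 25.8% lower. On these libraries the study named Tdgf1 and Lefty2 of the general list as not or only partly downregulated in KO. It named 7 genes of the naive list as properly downregulated in both genotypes.

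At d6 the largest differences of the general list were those of Tdgf1 (3.81), a coreceptor of Nodal, Foxd3 (3.50), a forkhead factor, and Fgf4 (3.42), a growth factor that Pou5f1 and Sox2 activate. The only gene called lower was Lin28b (-0.97), a regulator of let-7 processing. Sox2, the partner of Pou5f1 on DNA, had a difference of 0.00 at d6 (SE 0.09, adjusted p = 0.994), and it was singled out here after its values were seen. At d0 Sox2 was called lower in KO by limma (-0.46, adjusted p = 8.04e-04). Its change from d0 to d6 was -1.01 in Ctrl and -0.55 in KO. Sox2 is also expressed in neural progenitors, and its mRNA in a mixture of cells does not separate these sources. Of the naive list, Nr0b1 (0.97), Tcl1 (0.97) and Esrrb (0.67) were highest in KO relative to Ctrl and Klf4 (-0.83) lowest. Tcl1 (0.92) and Esrrb (0.40) were already called higher in KO at d0. From d0 to d6 Tcl1 changed by -3.78 in Ctrl and by -3.74 in KO. At d6 the 5 genes described here lay within the range of the general list and, at 1.42 to 3.08, above each of the 12 naive genes. The study named the 5 genes and several of the naive genes by their course on these libraries. The gap between them therefore follows in part from the choice.

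**Figure D5:**
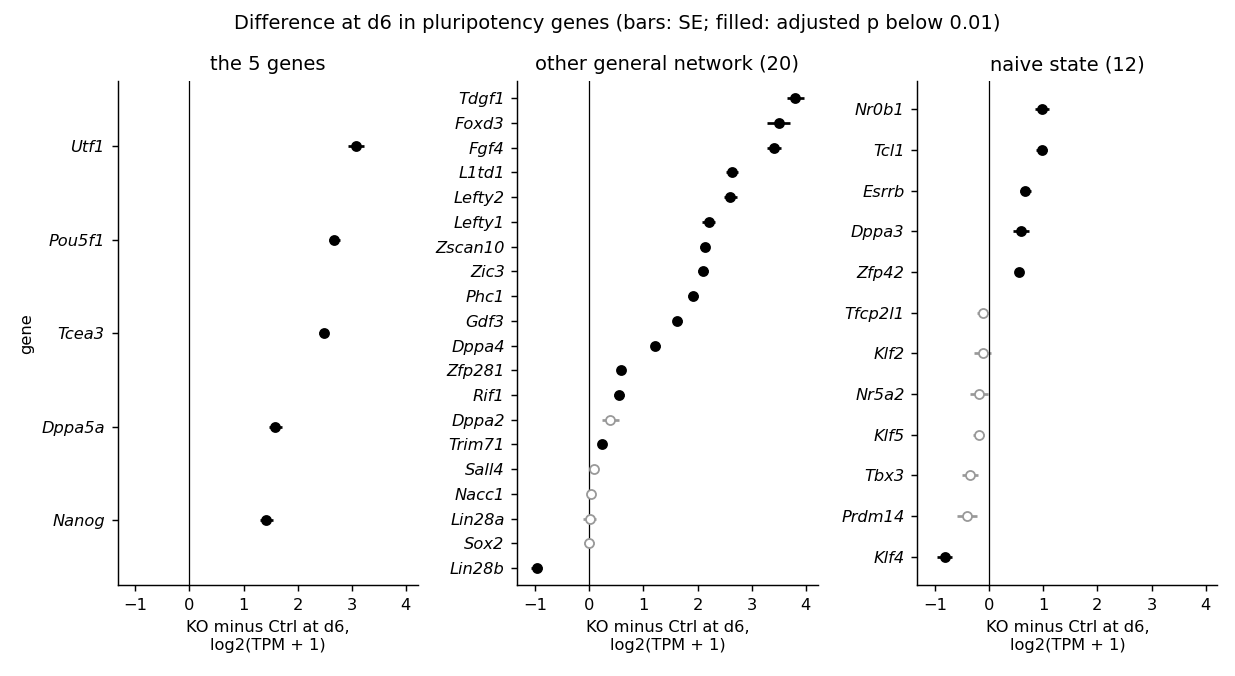
KO minus Ctrl at d6 on the log2(TPM + 1) scale (horizontal axis) for the 5 genes, the 20 other genes of the general network and the 12 naive-state genes (vertical axis, ordered by value). Points are limma estimates over 3 libraries of each genotype, bars are SEs, and filled points passed an adjusted p of 0.01. The naive genes lie between -0.83 and 0.97, and the 5 genes between 1.42 and 3.08.

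Other POU factors, and a list of elongation genes that includes Tcea1 and Tcea2 but is not only the family of Tcea3, were examined in the same way. Of 5 other POU factors measured, the epiblast factor Pou3f1 (Oct6) was higher in KO at d6 by 3.06 and Pou2f3 by 0.83. The neural factors Pou3f2 (-5.61), Pou3f3 (-2.81) and Pou4f1 (-1.09) were lower, where 17.9% of all genes were called higher and 34.3% lower. At d0 limma had called Pou3f1 lower in KO (-1.30, adjusted p = 5.20e-06) and Pou2f3 higher (2.02, adjusted p = 5.09e-06). The other 3 were not called at d0, where 10.6% of all genes were called higher and 16.4% lower. From d0 to d6 Pou2f3 changed by -2.64 in Ctrl and by -3.82 in KO. Of 7 measured elongation genes, 1 was called higher at d6 (Ell2, 0.85), 3 were lower (Tceal1, -1.19, Ell, -0.47, and Supt5, -0.31) and 3 were not called, Tcea1 and Tcea2 among them, shares that lie near those of all genes. None of the 7 was called at d0, where the limma test gave Tcea1 -0.32 (adjusted p = 0.0369) and Supt5 -0.18 (adjusted p = 0.0414) and Tcea3 stood at -1.30.

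Markers of other kinds of cell also differed between the genotypes at d6. On that day 17.9% of all genes were called higher in KO and 34.3% lower. The 5 neural markers, Sox1, Pax6, Nes, Hes5 and Zfp521, were all called lower in KO at d6, with a median of -2.77. The 6 markers of primordial germ cells, which express Pou5f1 and Nanog too, added up to 338 to 368 TPM in Ctrl and 151 to 169 TPM in KO at d4 and to 147 to 160 TPM in Ctrl and 105 to 126 TPM in KO at d6, and 2 of the 6 were called higher and 3 lower. Of the 5 markers of primitive endoderm 4 were measured and summed to 73.3 to 106 TPM in Ctrl and 28.2 to 41.3 TPM in KO at d6, with all 4 called lower. Of the 6 markers of fibroblasts 3 were measured, and they summed to 26.3 to 32.7 TPM in Ctrl and 32.7 to 44.8 TPM in KO at d6. Of these, Col1a1 and Col1a2, the defining collagens, were called lower, at 3.55 and 1.60 TPM in KO against 15.6 and 7.72 TPM in Ctrl, and Thy1, at 32.8 against 5.19 TPM, was called higher and carried the sum. Of the 4 markers of trophectoderm 2 were measured and summed to 11.2 to 16.8 TPM in Ctrl and 4.46 to 6.87 TPM in KO at d6, and both were called lower. At d4 the neural markers summed to 161 to 198 TPM in Ctrl and 97.0 to 113 TPM in KO. Hes5 had 0 recovered reads in the 3 KO libraries of d0. The part of these cells in the levels of the 5 genes was not tested.

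How reads are assigned bears on 3 of the genes, since the reads are single ends of 36 bases. Of the 584 stretches of 36 bases in the transcripts of Dppa5a, 305 (52.2%) also occur in transcripts of 10 other genes, mostly processed pseudogenes, so the level of Dppa5a is uncertain. The pseudogenes Gm6083 and Gm6798 were listed at 588 ± 95.3 and 437 ± 55.4 TPM (SD, n = 3) in KO and at 204 ± 49.3 and 126 ± 11.6 TPM in Ctrl at d6, differences of 1.53 and 1.79 (both called). Reads of Dppa5a and of these copies cannot be told apart in the shared stretches. For Nanog 199 of 2240 stretches (8.88%) and for Pou5f1 285 of 2302 (12.4%) occur elsewhere, and for Utf1 and Tcea3 none of 1192 and 1398. Pou5f1 also overlaps an antisense gene, Gm19553, and no source used here states that strand was used in counting.

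Earlier results of these data show stretches of chromosomes that differ as a whole between the genotypes, so each gene was set beside the other genes within 5 Mb. The 82 neighbours of Nanog had a median difference of 0.11 on d0, which moved to -0.35 by d4 and to -0.13 by d6, with 2 of them above Nanog at d6. With the regional median subtracted in each library, Nanog at d4 came to 0.51 and was called (adjusted p = 0.00221). Of the 126 neighbours of Tcea3, which had a median of -0.17 at d0, 1 lay below Tcea3 that day. For Pou5f1 (135 neighbours), Utf1 (72) and Dppa5a (30) the median of the neighbours stayed between -0.29 and -0.02, and at d6 0, 1 and 0 of them exceeded the gene.

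The genes whose log2(TPM + 1) ran most like each of the 5 over the 18 libraries were found by Pearson correlation. The libraries form groups by day and genotype that all pairs share, so the values are descriptive. Pou5f1 was most like Sgk1 (r = 0.986), Zscan10 (0.979) and Trim6 (0.9747), and Nanog was most like Alg13 (0.987), Fzd5 (0.983) and Mov10 (0.982). Utf1 was most like Nav2 (0.977), Cdh9 (0.976) and Ackr4 (0.974), and Tcea3 was most like Enc1 (0.961), Mid1ip1 (0.952) and Dtx1 (0.939). The closest for Dppa5a were its copies Gm6798 (0.987) and Gm6083 (0.984), which share stretches with it, and Cpt1a (0.984). Among the 5 themselves, Pou5f1 and Dppa5a were alike (0.941) and so were Pou5f1 and Nanog (0.900). Utf1 was nearer to Tcea3 (0.767) than to Pou5f1 (0.149) or Nanog (-0.19), though Tcea3 ranked only 436th among the genes most like Utf1.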

How the data were processed

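RNA was sequenced from 18 libraries as single reads of 36 bases. The authors aligned them with TopHat2 2.0.13 to GRCm38 and counted them per gene with featureCounts 1.4.6. They deposited TPM values of genes that remained after removal of short noncoding genes, of genes that did not reach 5 TPM in 3 samples and of the 20% least variable genes. The table held 11046 entries, and 81 repeated identifiers were left out, the first of each kept. Its 3 columns of variability scores by gene play no role here. From the TPM values, reads were worked back as the whole numbers (within 1e-06) that a common length of each gene gives in every library, with 1 read added per gene. This worked for all 10965 genes.

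The fit used limma (version 3.58.1, under R 4.3.3) with an intensity trend in eBayes on log2(TPM + 1), in 12 contrasts with Benjamini-Hochberg adjustment. Such a fold change understates the change of weakly expressed genes. Exact permutation tests used scipy 1.17.1, with Python 3.11.15. The fit was tested on simulated data. Positions came from GENCODE M21 and promoter windows from RefSeq. The genes named are the 5 members, Zeb2, the 3 genes most like each member and, for each list, up to 3 genes called with the largest difference in either direction at d6. The members and lists were chosen with earlier results of these data known. Alternatives were the pseudocount (0.1 and 5), a mean TPM of at least 10, median-ratio rescaling, quantile normalization, no trend, a replicate block, voom on recovered reads, 1 day alone, regional medians and leaving out each library.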

Additional observations from a re-analysis of the deposited data

Results flagged for a closer look

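The change over time differed between Ctrl and KO for each of the 5 genes, by the interaction in limma with Benjamini-Hochberg adjustment over all 10965 genes. The study chose these genes for staying high in KO on the same libraries, so these differences are a description and not independent evidence. From d0 to d4 the change in KO exceeded that in Ctrl, on the log2(TPM + 1) scale, by 1.19 for Pou5f1 (adjusted p = 8.61e-06), by 1.37 for Dppa5a (adjusted p = 6.10e-06) and by 2.14 for Tcea3 (adjusted p = 1.57e-09). From d4 to d6 it did so by 1.51 for Pou5f1 (adjusted p = 1.90e-06), 1.24 for Nanog (adjusted p = 5.30e-05), 2.17 for Utf1 (adjusted p = 3.04e-06) and 1.64 for Tcea3 (adjusted p = 4.82e-08). Over the whole course from d0 to d6 the excess was 2.70 for Pou5f1 (adjusted p = 5.45e-10), 1.51 for Nanog (adjusted p = 1.56e-06), 2.93 for Utf1 (adjusted p = 2.32e-08), 1.66 for Dppa5a (adjusted p = 4.59e-07) and 3.78 for Tcea3 (adjusted p = 8.48e-13). For Utf1 and Tcea3 the mean level rose in KO between d4 and d6 while it fell in Ctrl, and for the other 3 genes it fell in both genotypes. For Tcea3 the excess over the whole course takes in the lower start of KO, where KO minus Ctrl was -1.30 at d0.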

How the results depend on the processing

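Of the 60 results for single genes, 56 kept their side of the threshold under every alternative. No result that was called, in the main fit or in an alternative, changed its direction. Changes of sign in results that were not called were not counted. The interaction of Utf1 from d0 to d4, 0.75 and not called, was called with a pseudocount of 5 (0.75), a mean TPM of at least 10 (0.75), median-ratio rescaling (0.88) and voom on recovered reads (0.85), and ranged from 0.58 to 0.93 when single libraries were left out. Nanog at d4 was called with regional medians removed (0.51). Leaving out single libraries gave -0.50 to -0.32 for Dppa5a in KO from d0 to d4 and -0.53 to -0.37 from d4 to d6. The number of genes called lower in KO from d0 to d4 went from 2 to between 1 and 2. Counts for the lists that moved by over 1.5 times did so by at most 2 genes, as for the elongation genes called higher at d4, which went from 1 to 3 after median-ratio rescaling and to 0 under a replicate block. No source states that a replicate number marks a shared experiment. Deviations of same-numbered Ctrl and KO libraries had r from -0.0773 to 0.231, and 6 of 9 pairs exceeded 0.1, those of replicates 1 and 2 on each day (0.148 to 0.231) and none of replicate 3. This is a hint of pairing in replicates 1 and 2 from the data, not from the design, and short of every pair exceeding 0.1. A replicate block left Pou5f1 at 2.68 at d6 and changed no call of a single gene. The depth gives at least 99 reads behind each value.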
